A study of Mus musculus with 10 samples.

Results

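The genes described here encode the amyloid precursor protein and its relatives, the proteases that process it, an enzyme that degrades the amyloid-beta peptide, and tau. The set held 9 genes, App, Aplp1, Aplp2, Bace1, Psen2, Ncstn, Adam10, Mme and Mapt, out of 30142 genes tested. They were chosen by name and by the function of their products, with earlier results of these data known. Each of the 9 had 1 row of the deposited table that named it alone, so no choice between probe sets was needed. The tissue was mouse brain taken 7 days after a controlled cortical impact, a model of brain trauma in which a driven tip deforms the surface of one hemisphere, here by 2 mm. Ipsilateral tissue, taken at the impact site (5 samples), was compared with contralateral tissue, the matching region of the opposite hemisphere (5 samples). All samples came from mice aged 8 to 12 weeks that had received the impact, and no uninjured mice were analysed here. The labels give no strain, genotype or drug treatment. They name adults of both sexes, whereas Xist, the RNA transcribed from the inactive X chromosome, stood between 4.53 and 4.67 on all 10 arrays, below the array medians. The labels call the samples biological replicates without saying which came from the same mouse, so the test treated all 10 as separate.

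Amyloid precursor protein is a membrane protein that neurons make in large amounts. Alpha-secretase, chiefly ADAM10 in neurons, cuts it within the amyloid-beta stretch, and beta-secretase, BACE1, cuts it at the start of that stretch. Gamma-secretase, a complex of a presenilin, nicastrin, APH1 and PEN2, then cuts the remaining stub within the membrane. Tau binds and stabilises microtubules in axons. Amyloid precursor protein is known to accumulate in injured axons, where its staining is used to detect axonal damage, but that is a measure of protein and not of the transcript.

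The sequences just upstream of the genes were searched for a pair of common promoter motifs. RefSeq (GRCm38.p6) gave promoter entries for 7 of the 9 genes, with 3 start sites for Mme and 2 for Psen2, which made 10 windows of 250 bases upstream of a start. Bace1 and Mapt were not matched. The GC box GGGCGG, read on both strands as GGGCGG or CCGCCC, was present in 8 of the 10 windows and in at least 1 window of 6 of the 7 genes, and it was present in 32.7% of all 32851 windows of that length. Ncstn and the downstream Psen2 window had no match. The sequence TATAAA, also read on both strands, was in none of the 10 windows and in 12.4% of all windows. The upstream windows of App, Aplp2 and Adam10 are printed because App is the substrate at the centre of the pathway and the other 2 genes had the smallest unadjusted p among the 9. Each runs 5′ to 3′ on the strand of the gene, with the GC box matches in capitals. The windows lie at chr16:85173708-85173957 (minus strand, App), chr9:31211849-31212098 (minus strand, Aplp2) and chr9:70678732-70678981 (plus strand, Adam10).
App: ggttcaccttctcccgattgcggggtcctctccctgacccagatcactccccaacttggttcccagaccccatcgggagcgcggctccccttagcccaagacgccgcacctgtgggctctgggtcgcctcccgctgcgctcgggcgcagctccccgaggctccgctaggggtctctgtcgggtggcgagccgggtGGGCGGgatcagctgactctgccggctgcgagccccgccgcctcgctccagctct
Aplp2: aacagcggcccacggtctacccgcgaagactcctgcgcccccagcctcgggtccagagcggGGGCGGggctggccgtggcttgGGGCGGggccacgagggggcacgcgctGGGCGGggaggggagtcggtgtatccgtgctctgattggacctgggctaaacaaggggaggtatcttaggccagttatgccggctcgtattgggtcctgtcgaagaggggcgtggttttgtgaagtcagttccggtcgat
Adam10: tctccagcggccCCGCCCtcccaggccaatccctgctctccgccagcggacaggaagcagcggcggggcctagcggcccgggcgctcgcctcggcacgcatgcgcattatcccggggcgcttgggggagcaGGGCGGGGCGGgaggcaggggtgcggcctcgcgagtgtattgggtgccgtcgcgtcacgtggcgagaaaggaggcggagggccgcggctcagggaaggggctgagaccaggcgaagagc
App had 1 match and 70.8% G or C, Aplp2 had 3 matches and 66.4%, and Adam10 had 3 matches and 74.0%, against a median of 52.4% over all windows. The matches on the GGGCGG strand of Adam10 share 1 base with each other.

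The arrays numbered 2 and 4 stood apart on both sides in genes of the choroid plexus, the tissue that makes cerebrospinal fluid. The mean log2 signal of 6 such genes was 9.70 and 7.91 on ipsilateral arrays 2 and 4 and 5.81 to 6.16 on the other 3 ipsilateral arrays, against 10.50 and 7.40 on contralateral arrays 2 and 4 and 5.48 to 5.85 on the other 3 contralateral arrays. Ttr, encoding the carrier protein transthyretin, reached 15.87 and 13.64 on ipsilateral arrays 2 and 4 and 16.54 and 12.66 on contralateral arrays 2 and 4. None of the 6 genes passed the test between the sides, and results were also computed without those 4 arrays.

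None of the 9 genes passed the test across all genes between the impact site and the other hemisphere. The test was limma's moderated test on the deposited log2 signals, with a threshold of 0.05 on the Benjamini-Hochberg adjusted p over all 30142 genes, and 5.55% of all genes passed it (1.22%, or 369 genes, higher ipsilaterally and 4.33%, or 1305 genes, lower). At an unadjusted p under 0.05, 3 of the 9 genes differed, against 21.3% of all genes. The ipsilateral and contralateral values overlapped for all 9 genes, and 7.25% of all genes had values that did not overlap. A log2 signal is a brightness on the array, and signals of different probe sets cannot be ranked as transcript levels, so each gene was compared only with itself across arrays. The samples are bulk tissue, in which fewer cells of a type and less RNA per cell cannot be told apart.

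App, the amyloid precursor protein gene itself, had log2 signals of 16.00, 16.16, 16.33, 16.10 and 16.12 on ipsilateral arrays 1 to 5, against 16.33, 16.13, 16.45, 16.33 and 16.28 on contralateral arrays 1 to 5. Most ipsilateral values lay below most contralateral ones, but ipsilateral array 3 was as high as the contralateral arrays numbered 1 and 4, and contralateral array 2 was among the low ones. The means were 16.14 ± 0.12 ipsilaterally and 16.30 ± 0.12 contralaterally (SD, n = 5 each), and the log2 fold change was -0.16 (95% interval -0.33 to 0.01, limma adjusted p = 0.260).

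Aplp2 encodes a relative of amyloid precursor protein that most tissues make and that is cut by the same secretases but holds no amyloid-beta stretch. It had log2 signals of 14.85, 14.60, 14.74, 14.66 and 14.63 ipsilaterally, against 14.92, 14.79, 14.91, 14.93 and 14.89 contralaterally. Ipsilateral array 1 lay inside the contralateral range and the other 4 ipsilateral arrays lay below every contralateral one. The log2 fold change was -0.19 (95% interval -0.33 to -0.06), with an unadjusted p of 0.0102 and an adjusted p of 0.103 in limma. The call turned on scaling and on that array: the adjusted p was 0.0373 without ipsilateral replicate 1, 0.0226 under median scaling, which centres the arrays on a common median, and 0.0409 with cyclic loess scaling.

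Aplp1, the family member made mainly in the nervous system, had log2 signals of 14.91, 15.11, 15.58, 15.02 and 15.11 ipsilaterally, against 15.05, 14.90, 15.25, 15.20 and 15.02 contralaterally. Ipsilateral array 3 was the highest of all 10 and the remaining ipsilateral arrays were spread through the contralateral range. The log2 fold change was 0.06 (95% interval -0.21 to 0.33, adjusted p = 0.827 in limma), and its sign turned without ipsilateral replicate 3 and under both quantile and median scaling.

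**Figure D1:**
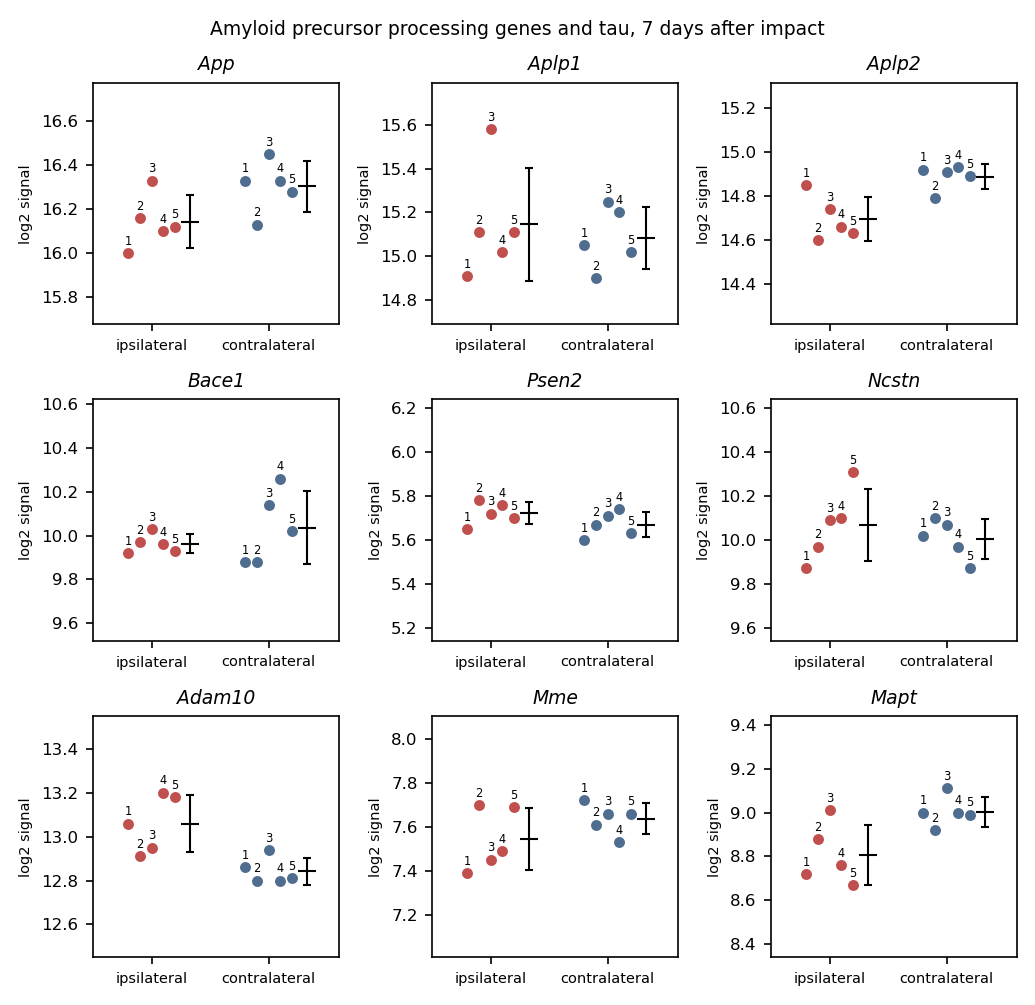
Log2 signal of the 9 genes on each of the 10 arrays (y axis, the same span of log2 units in every panel), with ipsilateral arrays on the left, contralateral arrays on the right, the replicate number above each point and black bars for the mean and SD of 5 arrays. The 2 sides overlap in every panel, with Aplp2, Adam10 and Mapt closest to separation and Aplp1 lifted by ipsilateral array 3.

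Among the proteases that start the cleavage, Adam10, the alpha-secretase gene, had log2 signals of 13.06, 12.91, 12.95, 13.20 and 13.18 ipsilaterally, against 12.86, 12.80, 12.94, 12.80 and 12.81 contralaterally. Ipsilateral arrays 4 and 5 stood highest, and only ipsilateral array 2 fell below the highest contralateral value, that of array 3. The means were 13.06 ± 0.13 ipsilaterally and 12.84 ± 0.06 contralaterally (SD, n = 5 each), with a log2 fold change of 0.22 (95% interval 0.06 to 0.37), an unadjusted p of 0.0103 and an adjusted p of 0.103 in limma. Ipsilateral arrays 4 and 5 also had the highest mean signal over 10 genes of microglia and macrophages, 10.28 and 10.04, against 8.48 to 8.99 on the other 3 ipsilateral arrays and 8.10 to 8.77 contralaterally. None of those 10 genes passed the test. The same arrays stood highest ipsilaterally in the lists of astrocytes, oligodendrocytes and their precursors. For astrocyte genes they were at 12.04 and 12.15, against 11.19 to 11.55 on the other 3. For oligodendrocyte and myelin genes they were at 11.25 and 10.84, against 9.95 to 10.21 on the other 3 and 10.59 to 11.98 contralaterally. The part of these cell types in the Adam10 values was not tested.

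Bace1, the beta-secretase gene, had log2 signals of 9.92, 9.97, 10.03, 9.96 and 9.93 ipsilaterally, against 9.88, 9.88, 10.14, 10.26 and 10.02 contralaterally. The 5 ipsilateral values lay close together inside the wider contralateral range, with SDs of 0.04 ipsilaterally and 0.17 contralaterally. The log2 fold change was -0.07 (95% interval -0.25 to 0.10, adjusted p = 0.649 in limma).

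Neither gamma-secretase member passed the test. Psen2, which encodes presenilin 2, a catalytic subunit, had log2 signals of 5.65, 5.78, 5.72, 5.76 and 5.70 ipsilaterally, against 5.60, 5.67, 5.71, 5.74 and 5.63 contralaterally. The array medians were 4.71 to 4.84, so Psen2 lay nearer to them than the other 8 genes did, and how far it stood above background was not measured here. Ncstn, which encodes nicastrin, the large glycosylated subunit of the complex, had log2 signals of 9.87, 9.97, 10.09, 10.10 and 10.31 ipsilaterally, against 10.02, 10.10, 10.07, 9.97 and 9.87 contralaterally. The sides overlapped almost throughout for both genes, with ipsilateral array 5 alone above the other Ncstn values. Log2 fold changes were 0.05 (95% interval -0.06 to 0.17, adjusted p = 0.623) for Psen2 and 0.06 (95% interval -0.12 to 0.25, adjusted p = 0.732) for Ncstn in limma, and both signs turned under median scaling.

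Mme encodes neprilysin, a membrane protease that degrades amyloid-beta and several neuropeptides. Its log2 signals were 7.39, 7.70, 7.45, 7.49 and 7.69 ipsilaterally, against 7.72, 7.61, 7.66, 7.53 and 7.66 contralaterally. Ipsilateral arrays 1, 3 and 4 lay below every contralateral array, while ipsilateral arrays 2 and 5 lay among them. The log2 fold change was -0.09 (95% interval -0.26 to 0.07, adjusted p = 0.529 in limma).

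Mapt, the tau gene, had log2 signals of 8.72, 8.88, 9.01, 8.76 and 8.67 ipsilaterally, against 9.0, 8.92, 9.11, 9.0 and 8.99 contralaterally. Ipsilateral array 3 alone reached the contralateral range, and the other 4 ipsilateral arrays lay below it. The means were 8.808 ± 0.137 ipsilaterally and 9.004 ± 0.068 contralaterally (SD, n = 5 each), and the log2 fold change was -0.20 (95% interval -0.36 to -0.04), with an unadjusted p of 0.0215 and an adjusted p of 0.152 in limma. Median scaling brought Mapt past the threshold (adjusted p = 0.0444), and no other alternative did.

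With the deposited scaling, over the 9 genes the 95% intervals, taken gene by gene, ran no lower than -0.36 (Mapt) and no higher than 0.37 (Adam10) on the log2 scale, which is 0.781 to 1.29 as a ratio of ipsilateral to contralateral signal. They excluded 0 for Aplp2, Adam10 and Mapt and included it for the other 6. Array signals can understate ratios of transcript abundance, so these limits hold for the signals. Quantile and cyclic loess scaling widened them, and median scaling moved both limits lower. The lowest bound was -0.63 with quantile scaling (App), -0.43 with median scaling (Mapt) and -0.41 with cyclic loess scaling (App), and the highest was 0.41 with cyclic loess scaling (Adam10). The Aplp2 log2 fold change was -0.32 with quantile scaling, the interval of App excluded 0 with median and cyclic loess scaling, and the interval of Adam10 included 0 with median scaling (-0.01 to 0.31). Without the arrays numbered 2 and 4 the log2 fold changes of Aplp2, Adam10 and Mapt were -0.17, 0.19 and -0.23, and none of the 9 passed.

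**Figure D2:**
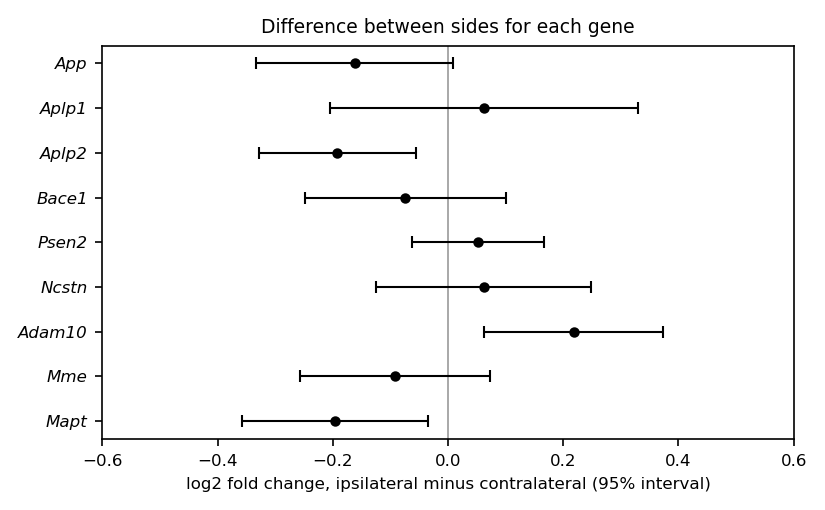
Log2 fold change, ipsilateral minus contralateral (x axis), of the 9 genes (y axis), with points for the difference of means and bars for the 95% interval of limma's moderated test, 5 arrays per side, the deposited scaling and no adjustment over genes. All bars lie between -0.36 and 0.37, and those of Aplp2, Adam10 and Mapt do not cross 0.

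A difference between members was tested for 4 combinations chosen by role, since each compares signals within the same array and does not depend on a shift common to both genes. Aplp1 minus App was -0.996 ± 0.141 ipsilaterally and -1.22 ± 0.06 contralaterally (SD, n = 5 each), and its range of -1.09 to -0.75 ipsilaterally did not overlap the range of -1.28 to -1.13 contralaterally. The balance of the 2 genes therefore differed by 0.22 between the sides (exact two-sided permutation p = 0.00794, the lowest possible with 5 arrays per side, and 0.0317 after Benjamini-Hochberg adjustment over the 4), which shows unequal change and not which gene moved. The call ended with quantile scaling (difference 0.15, adjusted p = 0.370). It also ended without ipsilateral replicate 3 and without contralateral replicate 1 (adjusted p = 0.0635 in both exact permutation tests).

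Bace1 minus Adam10, the beta- against the alpha-secretase gene, was -3.10 ± 0.16 ipsilaterally and -2.81 ± 0.17 contralaterally, a difference of -0.29 (exact two-sided permutation p = 0.0397, adjusted 0.0794). It did not pass after adjustment. Aplp2 minus App differed by -0.03 (exact permutation p = 0.794, adjusted 0.960) and Psen2 minus Ncstn, subunits of the same complex, by -0.01 (exact permutation p = 0.960, adjusted 0.960). With quantile scaling these became -0.12 each (adjusted p = 0.484 and 0.370 in the exact permutation tests).

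**Figure D3:**
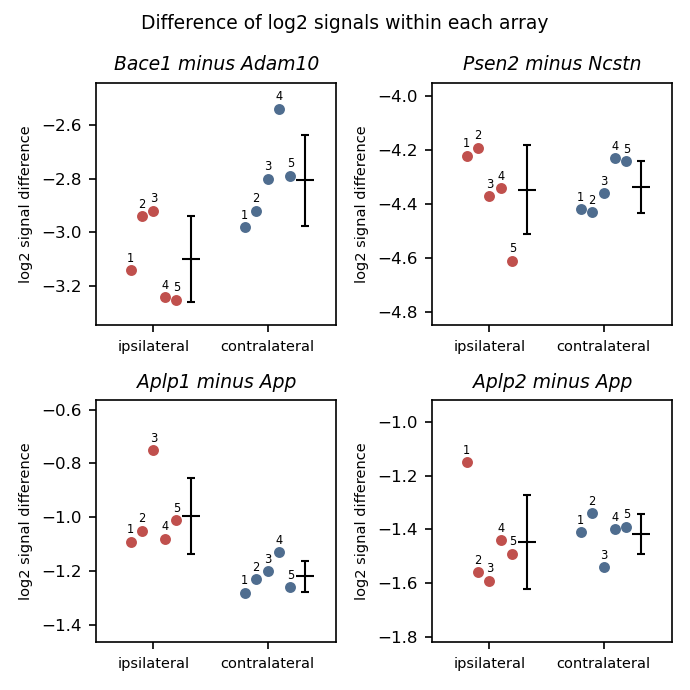
Difference of the log2 signals of 2 genes within each array (y axis) for 4 combinations, with ipsilateral arrays on the left, contralateral arrays on the right, replicate numbers above the points and black bars for the mean and SD of 5 arrays. For Aplp1 minus App all ipsilateral points (-1.09 to -0.75) lie above all contralateral points (-1.28 to -1.13), and in the other 3 panels the sides overlap.

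Some genes around the 9 passed the test. Of 90 other measured genes in 8 lists of binding partners, secretases, substrates, degrading enzymes, tau kinases and microtubule proteins, 16 were lower and 2 higher ipsilaterally, which is 20.0% of the lists against 5.55% of all genes tested. Their median log2 fold change was -0.08, against -0.07 for the 9 genes and 0.02 for all genes. At an unadjusted p under 0.05 in limma, 40 of the 90 differed, against 21.3% of all genes. The 5.55% also counts dim genes. Without the dimmest 50% of genes, 534 of all genes kept were higher and 1637 lower, more than with all genes (369 and 1305). As fewer genes were tested, the share of genes passing was larger than 5.55%. The 20.0% set against 5.55% therefore overstates the excess over brighter genes. In that fit 4 list genes were higher and 23 lower, and how many list genes were kept was not counted. A share over genes of like signal was not computed, and the lists were chosen with earlier results of these data known. Whether the lists differ from the 9 genes was not tested. How many of the list genes are neuronal was not counted. The mean signal of 10 neuronal marker genes was 12.98 to 13.42 ipsilaterally and 13.46 to 13.67 contralaterally. Of the 10, 4 were lower (Nefh, Nefm, Nefl and Rbfox3) and 6 did not pass. The log2 fold changes of those 6 ran from -0.25 (Slc17a7) to 0.05 (Tubb3). The part of the neuronal marker difference in the list results was not tested.

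**Figure D4:**
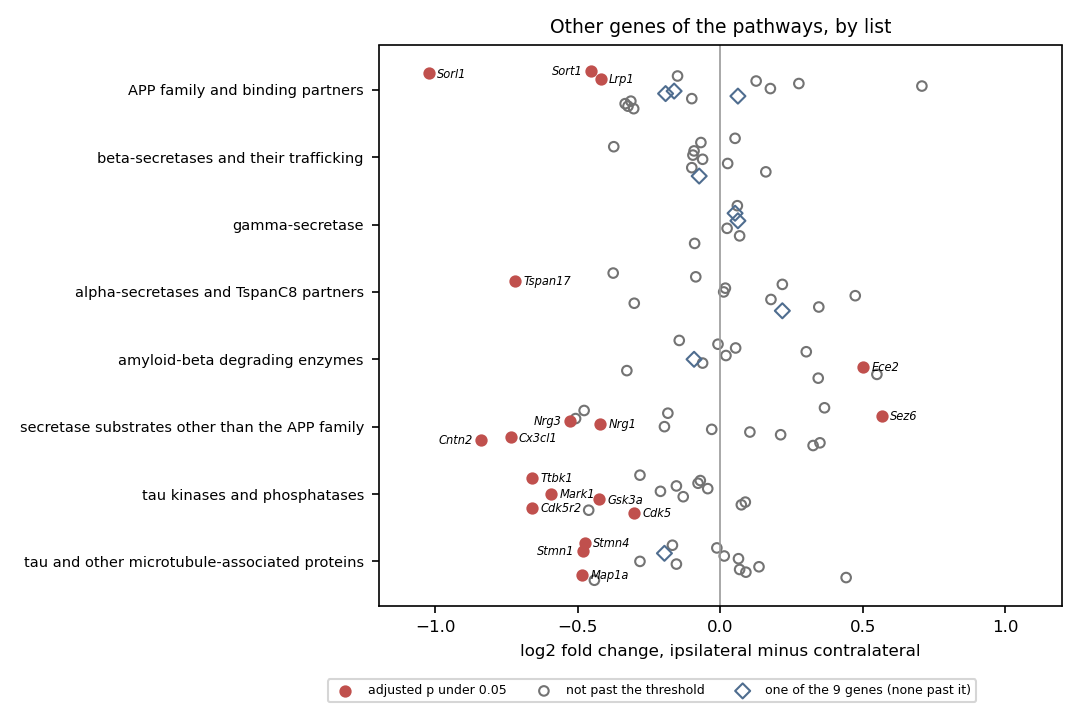
Log2 fold change, ipsilateral minus contralateral (x axis), of the measured genes of the 8 lists (rows), with filled points for genes past an adjusted p of 0.05, open circles for other genes and diamonds for the 9 genes. Most filled points lie on the negative side, Sorl1 farthest at -1.02, while all diamonds lie within 0.22 of 0.

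Among 16 measured members of the APP family and binding partners, 3 fell, 13 did not pass, and the median log2 fold change was -0.18. Sorl1 encodes a sorting receptor that binds amyloid precursor protein and routes it away from the compartments where it is cut. Its log2 signals were 13.55, 13.26, 13.07, 13.07 and 12.74 ipsilaterally, against 14.52, 14.08, 14.26, 13.78 and 14.17 contralaterally, so that every ipsilateral array lay below every contralateral one. It fell by 1.02 ± 0.16 on the log2 scale (SE, adjusted p = 0.00518 in limma).

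Sort1, encoding the related receptor sortilin, had log2 signals of 13.90, 14.33, 13.96, 14.11 and 14.00 ipsilaterally, against 14.55, 14.45, 14.61, 14.51 and 14.45 contralaterally. Lrp1, a large endocytic receptor that takes up amyloid-beta and lipoproteins, had log2 signals of 12.45, 12.68, 12.63, 12.74 and 12.61 ipsilaterally, against 13.03, 12.98, 13.22, 13.04 and 12.94 contralaterally. The sides did not overlap for either gene, which was so for 5.21% of all genes in the downward direction. Sort1 fell by 0.45 ± 0.08 (SE, adjusted p = 0.0103 in limma, and 0.0555 with replicate number as a fixed block) and Lrp1 fell by 0.42 ± 0.07 (SE, adjusted p = 0.00852).

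The secretase lists held 1 called gene. Of 11 alpha-secretase genes and TspanC8 partners, Tspan17, a tetraspanin that binds ADAM10 and helps it leave the endoplasmic reticulum, fell by 0.72 ± 0.09 (SE, adjusted p = 0.00161 in limma). Its log2 signals were 9.0, 9.07, 9.08, 8.99 and 8.79 ipsilaterally, against 9.79, 9.82, 9.72, 9.44 and 9.76 contralaterally, without overlap. The list's median log2 fold change was 0.02. None of the 10 beta-secretase and trafficking genes passed, the strongest statistics being those of the reticulon Rtn4 (-0.37, adjusted p = 0.0692) and the second beta-secretase gene Bace2 (0.16, adjusted p = 0.460). None of the 6 measured gamma-secretase genes passed either, with the strongest statistics for Psen2 and for Aph1a (-0.09, adjusted p = 0.626). All 4 gamma-secretase genes other than Psen2 and Ncstn had log2 fold changes between -0.09 and 0.07.

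Of 11 measured enzymes that can degrade amyloid-beta, 1 rose. This was Ece2, an endothelin-converting enzyme that works in acidic compartments, at 6.92 ± 0.18 ipsilaterally and 6.42 ± 0.24 contralaterally (SD, n = 5 each), a rise of 0.50 with overlapping sides (adjusted p = 0.0405 in limma). The call was lost when any of 8 of the 10 arrays was left out (all but ipsilateral replicate 1 and contralateral replicate 4, adjusted p up to 0.102), with quantile scaling (0.0657), with median scaling (0.0672) and with replicate number as a fixed block (0.0916). Of the others, the insulin-degrading enzyme gene Ide differed by -0.06 (adjusted p = 0.719 in limma), and larger differences also fell short of the threshold. Ece1 stood at -0.33 (adjusted p = 0.0615), with every ipsilateral array below every contralateral one, which was so for 5.21% of all genes. Ctsb stood at 0.55 with overlapping sides (adjusted p = 0.251). The list's median was 0.02.

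Among 15 other substrates of the secretases, 4 fell and 1 rose, with a median log2 fold change of -0.18. Cx3cl1, the membrane-bound chemokine of neurons that ADAM10 and ADAM17 shed and whose receptor is on microglia, stood at 9.99 ± 0.18 ipsilaterally and 10.72 ± 0.11 contralaterally (SD, n = 5 each) and fell by 0.74 (adjusted p = 0.00179 in limma). The BACE1 substrate Nrg1, encoding neuregulin 1, fell by 0.42 (adjusted p = 0.0152, from the brighter of its 2 probe sets). With the mean of both probe sets its log2 fold change was -0.25 and it did not pass (adjusted p = 0.0629). Nrg3 fell by 0.53 (adjusted p = 0.0176, and 0.0528 without contralateral replicate 1) and the axonal adhesion gene Cntn2 by 0.84 (adjusted p = 0.0235, lost without ipsilateral replicates 2 and 3 and contralateral replicates 1, 2, 3 and 5, up to 0.0665). With replicate number as a fixed block Nrg3 and Cntn2 did not pass (0.0546 and 0.0887 in limma).

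Sez6, a neuronal BACE1 substrate, went the other way, at 9.65 ± 0.16 ipsilaterally and 9.08 ± 0.26 contralaterally (SD, n = 5 each), a rise of 0.57 without overlap, which was so for 2.04% of all genes in the upward direction (adjusted p = 0.0258 in limma). It did not pass without ipsilateral replicate 5 or contralateral replicates 1, 2 or 5 (adjusted p up to 0.0734), nor with replicate number as a fixed block (0.0856).

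Of 15 measured tau kinases and phosphatases, 5 fell and none rose, and the median log2 fold change was -0.21. Ttbk1, a tau kinase made mainly in neurons, had log2 signals of 9.83, 9.84, 9.91, 9.64 and 9.56 ipsilaterally, against 10.49, 10.27, 10.55, 10.36 and 10.42 contralaterally. Every ipsilateral array lay below every contralateral one, and Ttbk1 fell by 0.66 ± 0.08 (SE, adjusted p = 0.00190 in limma). Cdk5, a kinase of neurons, fell by 0.30 (adjusted p = 0.0258) and Cdk5r2, one of its activators, by 0.66 (adjusted p = 0.00569), while its other activator Cdk5r1 stood at -0.46 on the same scale (adjusted p = 0.0883).

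Gsk3a, one of the glycogen synthase kinase 3 genes, fell by 0.43 (adjusted p = 0.0154 in limma), and its paralog Gsk3b stood at -0.13 (adjusted p = 0.432). Mark1, a kinase of the microtubule-binding repeats, fell by 0.59 (adjusted p = 0.0437). The Mark1 call was lost without any of 8 of the 10 arrays (all but ipsilateral replicates 1 and 3, up to 0.111), with quantile and cyclic loess scaling (0.0533 and 0.0528) and with replicate number as a fixed block (0.0546), and the Cdk5 call without any of 6 (ipsilateral replicates 2, 4 and 5 and contralateral replicates 1, 3 and 5, up to 0.0737) and with the block (0.0733).

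Of 15 measured genes of tau and other microtubule-associated proteins, 3 fell and the median log2 fold change was -0.15, against -0.20 for Mapt. Map1a, a microtubule-associated protein of mature neurons, had log2 signals of 10.49, 10.42, 10.58, 10.37 and 10.37 ipsilaterally, against 11.00, 10.86, 11.03, 10.85 and 10.91 contralaterally, without overlap. It fell by 0.48 ± 0.06 (SE, adjusted p = 0.00216 in limma). Stmn4 and Stmn1, members of the stathmin family, whose founding member binds free tubulin, fell by 0.48 each (adjusted p = 0.00843 and 0.0178, the second lost without contralateral replicates 1, 3 or 5, up to 0.0561). Map2, the dendritic relative of tau, stood at 0.14 (adjusted p = 0.494) and Map1b at 0.09 (adjusted p = 0.686). Dclk1, also not past the threshold, stood at -0.44 (adjusted p = 0.0776 in limma).

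**Figure D5:**
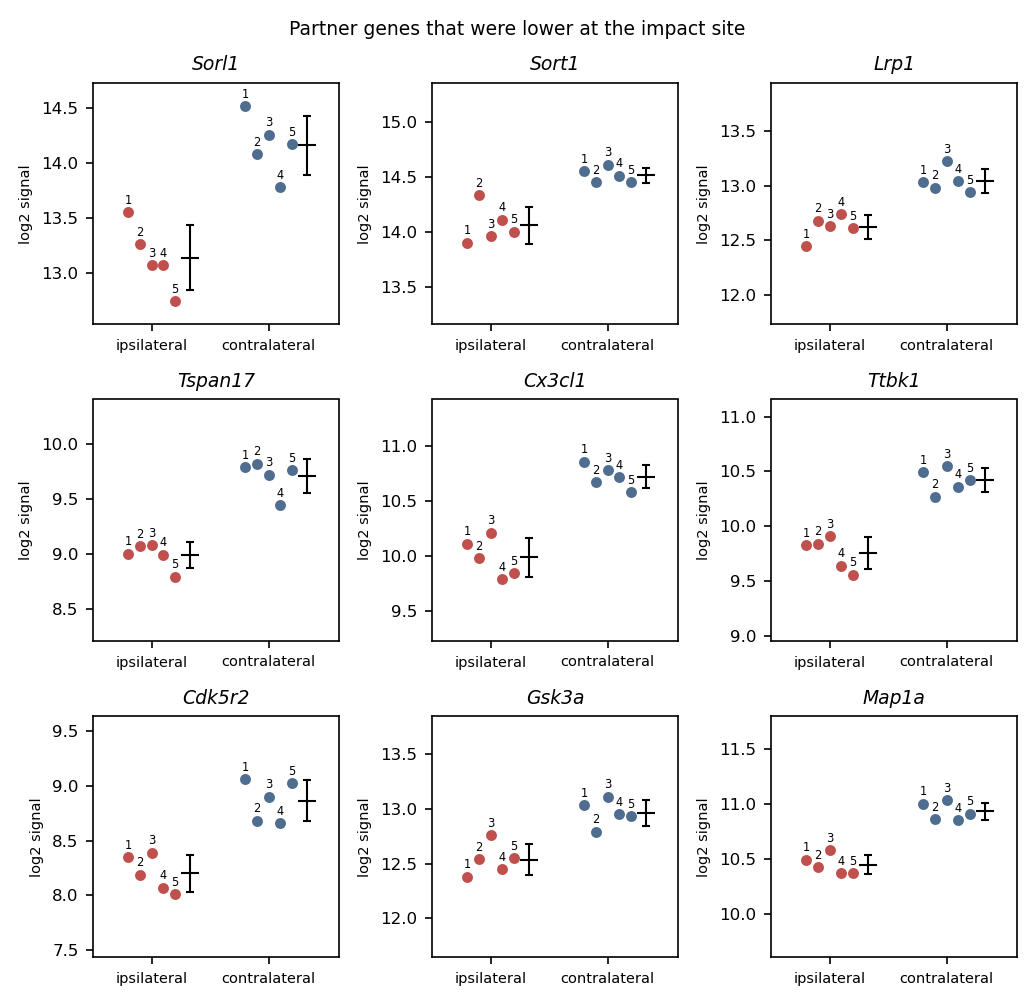
Log2 signal of 9 of the called genes on each array (y axis, the same span of log2 units in every panel), with ipsilateral arrays on the left, contralateral arrays on the right, replicate numbers above the points and black bars for the mean and SD of 5 arrays. In all 9 panels every ipsilateral array lies below every contralateral array, with Sorl1 the widest apart (means 13.14 ipsilaterally and 14.16 contralaterally). The 9 were picked from the genes called lower, so the separation follows in part from that choice. Over all genes, 5.21% were separated in this direction. Cntn2, also called lower but with overlapping sides, is not shown.

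Leaving out replicates 2 and 4 of each side together, the arrays with high choroid plexus signal, was tried once the data had been seen and kept 3 arrays per side. In that fit 6 list genes were lower and 1 higher, and none of the 9 genes passed. Sorl1, Lrp1, Map1a, Stmn4, Cx3cl1 and Gsk3a were among those that no longer passed (adjusted p = 0.0564, 0.0823, 0.0583, 0.0616, 0.0646 and 0.131 in limma), at log2 fold changes of -1.197, -0.50, -0.50, -0.55, -0.69 and -0.46 that were close to those with all arrays or larger in size. Tspan17, Ttbk1 and Cdk5r2 passed at 0.05 under all alternatives run, these included.

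Bulk values also hold other cell types, and some of their marker genes passed the test. The mean signal of 8 measured oligodendrocyte and myelin genes was 9.95 to 11.25 ipsilaterally and 10.59 to 11.98 contralaterally, with 2 of the 8, Mal and Opalin, lower. That of 8 astrocyte genes was 11.19 to 12.15 ipsilaterally and 11.04 to 11.40 contralaterally, with 1 of the 8, Aqp4, higher by 0.95. Gfap stood at 2.07 on the log2 scale (adjusted p = 0.0814), while Aldh1l1 stood at -0.36 (adjusted p = 0.121) and Slc1a2 at -0.15 (adjusted p = 0.454 in limma). That of 8 neocortical layer genes was 9.41 to 9.75 ipsilaterally and 10.06 to 10.14 contralaterally, without overlap, with Tbr1, Cux1, Cux2 and Rorb lower and Bcl11b higher. That of 6 striatal genes was 6.82 to 8.19 ipsilaterally and 6.51 to 6.91 contralaterally, and none of the 6 passed. The neuronal list had a mean signal of at least 12.98 on every array. Every marker list lay above the array medians on every array, so that level does not tell how much of a cell type was present. The part of each list in the results was not tested.

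The genes most like each member across arrays were sought by Pearson's r over the 10 arrays after the mean of each side had been subtracted, among genes with a mean signal of at least 6. With 10 arrays and 10760 genes searched, high values of r occur by selection alone, and they are given as a description. App was most like Gsk3a (r = 0.973) and Met (0.962), and Mapt was most like Acap3 (0.965) and Ttc5 (0.946). Gsk3a, Met and Acap3 had themselves passed the test between sides. Aplp1 was most like Marf1 (0.978, itself past the test) and Scaf1 (0.957), and Aplp2 most like Ilf2 (0.977) and Grk5 (0.975). Adam10 was most like Cyp20a1 (0.967) and the BACE1 substrate gene St6gal1 (0.955), and Bace1 most like Fbxo42 (0.946) and Zwint (0.943). Ncstn was most like Sox9 (0.986), an astrocyte transcription factor, and Wnk1 (0.966), Psen2 most like Agpat4 (0.944) and Fam76a (0.929), and Mme most like Tmem178 (0.934, also past the test) and Psrc1 (0.928).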

How the data were processed

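The analysis started from log2 signals deposited by the authors, 1 column per array and 65956 rows, and per the submitters' processing notes they used Transcriptome Analysis Console 4.0. That the scale is log2 was read from the values (2 decimals, 1.97 to 19.93). The sources used here do not give the background correction, the normalization or the genome build. Ipsilateral array medians (4.79 to 4.84) all exceeded contralateral ones (4.71 to 4.77), so an offset between arrays and side cannot be told apart.

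Rows with 1 gene symbol in the array annotation (30604) were kept, symbols were updated through Entrez IDs, and the brightest row per gene was used. All 30142 genes were fitted in limma 3.58.1 (R 4.3.3) with lmFit and eBayes, ipsilateral minus contralateral, no covariates, Benjamini-Hochberg adjustment over all genes. Exact permutation tests enumerated all splits of the 10 arrays into 5 and 5. On simulated data with 200 changed genes among 30142, for this comparison, 54.4% of changes of 0.5 on the log2 scale were recovered, 91.5% of 1 and 98.4% of 2.

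The members and lists were chosen with earlier results of these data known. Named were all 9 genes, the called genes of each list (or its 2 strongest statistics where none was called) and the 2 genes most like each member (no Gm-numbered, LOC or Rik symbols). Ide, Ece1, Ctsb, Cdk5r1, Gsk3b, Map2, Map1b and Dclk1 were added after their values were seen. Alternatives were replicate blocks, 3 scalings, 2 filters on dim genes, the mean of a gene's rows, another variance model, array weights, the omission of each array and a 0.01 threshold. Precision is limited by having 5 arrays per side.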

Additional observations from a re-analysis of the deposited data

Results flagged for a closer look

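Of the 18 sets of 5 arrays (9 genes on 2 sides), 1 held an array far from the others. Aplp2 on contralateral replicate 2 was at 14.79, below the nearest contralateral array at 14.89, a gap of 0.714 of the range of the 5, where 0.71 is Dixon's 95% critical value. Chance flags about 1 in 20 such sets. Without that array the log2 fold change of Aplp2 was -0.22 and the adjusted p was 0.103 in limma.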

How the results depend on the processing

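The count of 0 called among the 9 genes became 2 with median scaling (Aplp2 and Mapt), 1 with cyclic loess scaling and 1 with array weights (Aplp2 in both), and was 0 to 1 when each array was left out in turn. Signs turned for genes near 0: Aplp1 was -0.053 with quantile scaling, -0.010 with median scaling and -0.046 to 0.121 without single arrays, Psen2 was -0.035 with quantile and -0.020 with median scaling, and Ncstn was -0.010 with median scaling. Scaling moved the median log2 fold change of all genes from 0.02 by less than 0.1 (-0.05 with median scaling). Of the list genes, 16 were lower and 2 higher. The lower count was 30 with median scaling, 8 at a threshold of 0.01, 6 without the arrays numbered 2 and 4, and 11 to 22 without single arrays. The higher count was 0 with the replicate block (fixed) and at 0.01, 1 with quantile and with median scaling and without the arrays numbered 2 and 4, 4 without the dimmest 50% of genes, and 0 to 4 without single arrays. Rises made up 22.0% of calls over all genes, and 8.13% with median scaling.

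For differences within arrays, Aplp1 minus App was 0.15 with quantile scaling, 0.30 without the arrays numbered 2 and 4 (where 3 arrays per side cannot pass) and 0.16 to 0.25 without single arrays. Aplp2 minus App was 0.011 with cyclic loess scaling, 0.037 without the arrays numbered 2 and 4 and -0.104 to 0.006 without single arrays, and Psen2 minus Ncstn was -0.049 to 0.056 without single arrays and -0.129 with cyclic loess scaling. The causes of these shifts were not tested. Across all genes, same-numbered arrays did not consistently deviate together (correlations of -0.399 to 0.259 across genes, and 1 of 5 numbers matched its own best). The correlations were 0.259 for number 1 and 0.255 for number 2. The replicate number was not taken as pairing, although choroid plexus genes were high on the arrays numbered 2 and 4 of both sides. Whether same-numbered samples came from the same mouse cannot be told from these values. As a fixed block the replicate number left 177 genes higher and 769 lower over all genes, 11 lower list genes and 0 of the 9 genes. All 9 genes had 1 row, so another row could not be tried.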
